A study of Arabidopsis thaliana with 9 samples.

Results

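The genes described here lie on the upper part of chromosome 4 of Arabidopsis thaliana, between positions 2895 and 9029477 of the TAIR10.1 assembly. They are the rows with IDs from AT4G00020 to AT4G15910 in locus order, without 13 listed IDs, that reached a mean of at least 5 CPM (read counts relative to the total of their library, with TMM scaling) over all 9 libraries. Of 33977 genes in the files, 19870 were tested and 1023 of these lay in the region. In the region, 241 tested genes stayed under 5 CPM and 12 of the 13 listed IDs exceeded it, which left 770 members. The region was chosen by the ratio of RNA interference (RNAi) libraries to wild type (WT) at its genes, so every value against WT below describes that choice and supports nothing. A further 14 tested loci had IDs in the range but lay beyond the region by position, and none of them reached 5 CPM.

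RNA came from aboveground tissue of bolting Col-0 plants grown with a 12 h photoperiod, 3 libraries in each of 3 groups. One group is labelled WT. The other 2 groups carried the genotype label PPD3-RNAi T+ and were labelled dwarf or large by phenotype; how many independent transformants they come from, and which promoter drives the transgene, is not given in the labels. PPD3 (AT1G76450), a chloroplast PsbP domain protein and the target of the transgene, lay between 77.9 and 128 CPM over the 9 libraries. No change was called in either RNAi group (log2 fold change 0.03, SE 0.17, adjusted p = 0.934 for dwarf, and -0.17, SE 0.17, adjusted p = 0.708 for large, edgeR's quasi-likelihood test). Group names below are therefore the labels of the libraries. Gene counts summed to between 34660392 and 35217754 per library. Leaf markers (RBCS1A, CAB1 and RCA, all 3 tested) summed to 32212 to 36919.5 CPM in WT, 23879.7 to 31528.5 CPM in large and 19093 to 41533 CPM in dwarf. Each of 4 floral organ markers and 4 root markers was too low to be tested, their sums were at most 0.895 and 0.0877 CPM, and 2 of the root markers were at 0 in all libraries. In such bulk tissue, fewer cells of a type and less RNA per cell cannot be told apart. Nothing in the labels says whether replicates were single plants or pools, and p-values measure the spread between these libraries. Dwarf 1 stood apart from the other 5 RNAi libraries, as described next, and results that rest on it are given with and without it.

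The upper part of chromosome 4 holds the short arm, with a block of ribosomal RNA genes near its tip and a gene-poor heterochromatic knob, then the centromere and the first stretch of the long arm. Its genes serve unrelated functions, from photosynthesis and defence to the cell cycle, and are read from separate promoters. Each gene is therefore set below against the median of the whole region.

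The sequences below are the 250 bases before the annotated start of 5 members, from RefSeq on TAIR10.1. They show the genes that the results turn on. PRL1 kept most evenly to the shared ratio across the RNAi libraries, among members that followed it and have a gene symbol. Its neighbour DI21 is the last member and one far above that ratio. NIP5;1 and GH9B13 are the members with the highest mean ratios, and UBQ14 stayed under the shared ratio. Capitals mark matches, on either strand, to 4 short motifs. The core of an element known from promoters of mitotic genes is AACGG. The G-box, bound by bZIP and bHLH factors, is CACGTG. The TATA box was searched as TATAAA. The last motif, common in promoters of genes of dividing cells, is TGGGCC. PRL1 is chr4:9023416-9023665 and DI21 is chr4:9028012-9028261, both on the plus strand. NIP5;1 is chr4:6435397-6435646, GH9B13 is chr4:1005306-1005555 and UBQ14 is chr4:1280167-1280416, all on the minus strand and printed 5′ to 3′ in the direction of transcription.
PRL1: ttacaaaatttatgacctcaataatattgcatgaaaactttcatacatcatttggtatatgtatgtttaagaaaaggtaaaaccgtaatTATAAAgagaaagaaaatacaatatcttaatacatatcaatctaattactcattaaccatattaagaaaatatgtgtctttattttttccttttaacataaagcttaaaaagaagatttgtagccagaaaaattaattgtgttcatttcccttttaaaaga
DI21: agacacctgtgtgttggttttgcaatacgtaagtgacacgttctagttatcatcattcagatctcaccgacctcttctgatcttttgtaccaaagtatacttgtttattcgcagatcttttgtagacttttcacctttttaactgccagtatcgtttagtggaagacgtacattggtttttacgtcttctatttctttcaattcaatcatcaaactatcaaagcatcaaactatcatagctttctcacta
NIP5;1: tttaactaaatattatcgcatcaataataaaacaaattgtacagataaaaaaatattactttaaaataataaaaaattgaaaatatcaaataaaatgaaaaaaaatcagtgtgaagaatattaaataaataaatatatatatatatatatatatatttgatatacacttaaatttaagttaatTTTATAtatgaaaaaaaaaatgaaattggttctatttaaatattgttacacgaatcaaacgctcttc
GH9B13: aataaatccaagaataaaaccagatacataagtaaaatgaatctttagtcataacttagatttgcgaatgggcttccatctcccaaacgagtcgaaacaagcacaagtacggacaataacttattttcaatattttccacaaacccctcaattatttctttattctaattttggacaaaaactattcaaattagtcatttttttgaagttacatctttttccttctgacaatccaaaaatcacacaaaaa
UBQ14: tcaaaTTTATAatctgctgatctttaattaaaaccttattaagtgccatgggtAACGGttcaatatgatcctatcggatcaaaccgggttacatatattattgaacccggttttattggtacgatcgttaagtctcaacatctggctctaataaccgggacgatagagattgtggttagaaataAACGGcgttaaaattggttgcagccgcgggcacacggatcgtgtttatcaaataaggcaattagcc
No match to the 4 motifs lay in these windows of DI21 and GH9B13. TATAAA was present in 47.3% of 27443 promoters of protein-coding genes and in 50.6% of the 761 member promoters. The shares of all promoters and of member promoters were 20.6% and 23.0% for AACGG, 6.49% and 8.15% for CACGTG, and 13.7% and 16.0% for TGGGCC. A match is a description of these letters and no evidence of binding.

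Transcripts of the members were higher than in WT in all 6 RNAi libraries by a nearly shared ratio. The median ratio to the WT mean was 1.46 in large 1, 1.48 in large 2 and 1.45 in large 3. It was 1.93 in dwarf 1, 1.48 in dwarf 2 and 1.44 in dwarf 3. The other 5 RNAi libraries thus lay within a narrow band below dwarf 1, while the 3 WT libraries had medians of 0.996 to 1.01. These medians, on the log2 scale 0.95, 0.57 and 0.53 in dwarf and 0.54, 0.56 and 0.54 in large, are called the step of each library below. Genes of at least 5 CPM outside the region, 13908 in number, had medians of 0.977 to 1.00 in the same RNAi libraries. Between 94.3 and 98.7% of the members exceeded their WT mean in each RNAi library, against 42.8 to 50.5% of the genes outside the region. In each WT library 46.9 to 53.5% of the members did. In all 6 RNAi libraries 667 members (86.6%) exceeded it, and no such share for other genes is given here. The 6 RNAi libraries all lay above the 3 WT libraries for 613 members (79.6%), where this held for 8.92% of all genes of at least 5 CPM, and lay below them for 0 members, where that held for 5.47% of all genes. By edgeR's quasi-likelihood test at an adjusted p under 0.05, 509 members were higher in dwarf than in WT, where 6.54% of all 19870 genes tested were, and 286 were higher in large, where 3.89% were. The latter count ranged from 1 (without WT 2) to 529 (without dwarf 1) and the former from 115 (without WT 1) to 623 (without dwarf 3) when one library was left out. The contrast chose the region, so these counts and shares describe it and nothing further is read from them.

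The step of the dwarf libraries was 0.68 ± 0.23 on the log2 scale (mean ± SD, n = 3) and that of the large libraries 0.55 ± 0.01 (n = 3). The difference of 0.13 was smaller than the SD of the dwarf libraries. A two-sided exact permutation test gave p = 0.6, but 3 libraries against 3 cannot go below 0.1, so the test could not have called a difference of any size. Without dwarf 1 the mean over dwarf was also 0.55. Dwarf 1 held the highest RNAi ratio for 540 of the 770 members, and each of the other 5 libraries for 12 to 103. No such count for genes outside the region is given here, and dwarf 1 had the widest spread of ratios there too.

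**Figure D1:**
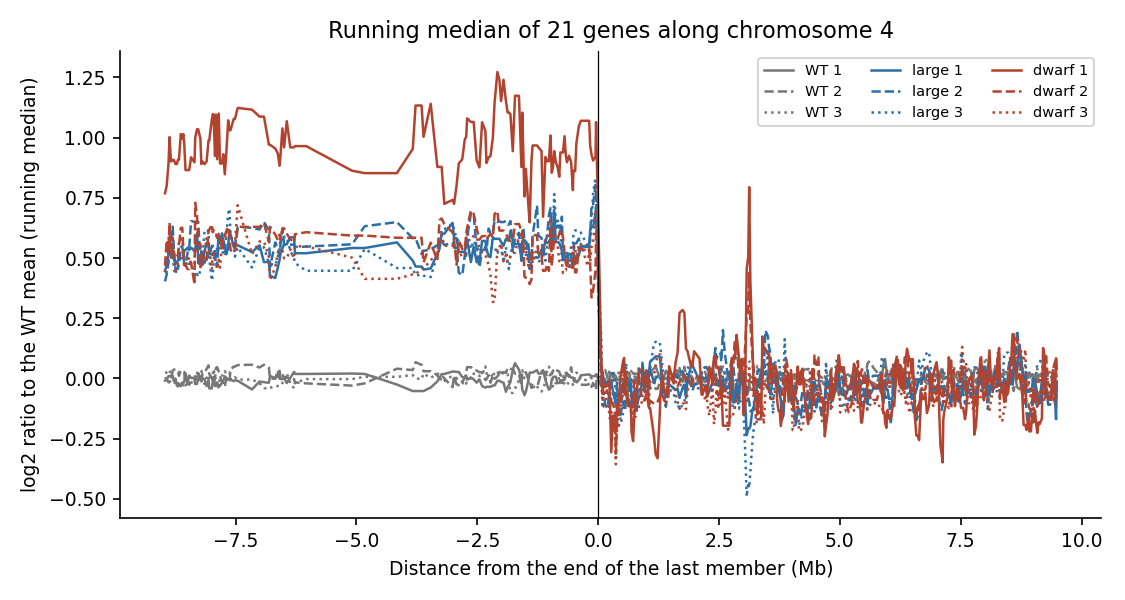
Running median of the log2 ratio to the WT mean over windows of 21 genes along chromosome 4, with distance from the end of the last member in Mb on the x axis and one line per library. The RNAi lines run near 0.5 to 0.6, dwarf 1 near 0.95, and fall to about the WT lines at the vertical line.

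The step held along the whole region and ended abruptly. In bins of 1 Mb with at least 20 genes, the median ratio inside the region lay between 1.86 and 2.10 in dwarf 1 and between 1.41 and 1.53 in each of the other 5 RNAi libraries. The bins left out, at 3 to 4, 4 to 5 and 9 to 10 Mb, held only 5, 10 and 5 members. Their median ratio lay between 1.80 and 2.15 in dwarf 1 and between 1.32 and 1.79 in the other 5. In the bins of the rest of the chromosome it lay between 0.922 and 1.03 in all 6. The last 20 members, from position 8925571 to 9029477, had medians of 2.10, 1.53 and 1.65 in the dwarf libraries and 1.65, 1.68 and 1.77 in the large ones. The next 20 genes, up to position 9173667, had medians of 0.954, 0.982 and 0.935 in dwarf and 1.02, 0.961 and 0.954 in large. The fall thus took place within 1 or 2 genes. The last 2 members, PRL1 and DI21, were above WT in every RNAi library. SWEET17, a vacuolar sugar transporter and the first gene beyond the limit, had ratios of 1.08, 0.849 and 1.33 in dwarf and of 1.57, 1.36 and 1.44 in large. AT4G15930 and AT4G15940, next along the chromosome, lay at 0.730 to 0.999 and at 0.654 to 0.802. Just inside and just outside the limit on level, AT4G04460, AT4G10650 and AT4G04360 had means of 5.04, 5.06 and 5.14 CPM, and AT4G14170, AT4G03440 and AT4G01790 of 4.95, 4.96 and 4.99 CPM.

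Members scattered around the step about as widely as genes elsewhere scattered around no change. The median absolute deviation of the log2 ratios in large 1, 2 and 3 was 0.197, 0.237 and 0.227 over the members, and 0.195, 0.223 and 0.226 over the genes outside. In dwarf 1, 2 and 3 it was 0.383, 0.253 and 0.242 over the members and 0.399, 0.254 and 0.284 outside. Dwarf 1 was the widest library in both sets, and the WT libraries had values of 0.0814 to 0.0949.

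**Figure D2:**
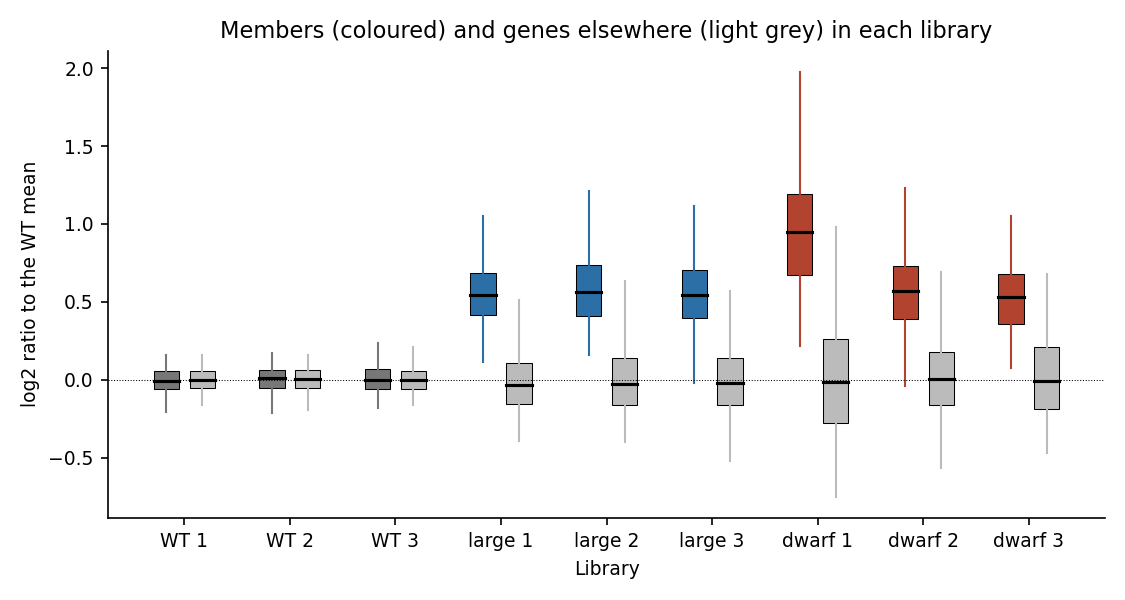
Log2 ratio to the WT mean in each library for the 770 members (coloured) and 13908 genes of at least 5 CPM outside the region (light grey), with the median as a bar, boxes from the first to the third quartile and lines from the 5th to the 95th percentile. The coloured boxes are shifted upward in the 6 RNAi libraries with similar heights to the grey ones.

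To ask which genes followed the step, each member's log2 ratio in a library was divided by the step of that library. By this measure, 293 members (38.1%) followed it, between 0.5 and 1.5 of the step in all 6 RNAi libraries. A further 4 (0.519%) stayed under 0.5 of it in all 6, 18 (2.34%) exceeded 1.5 of it in all 6, and the other 455 (59.1%) fell into different classes in different libraries. Outside the region the last share was 66.8%. Outside the region, bands of the same widths around no change held 31.1% of the 13908 genes in all 6 libraries, with 0.381% below and 1.70% above. On chromosomes 2 and 5 these shares were 38.9%, 0.502% and 1.38%, a background chosen after the values were seen. The members that departed from the step in every library were therefore nearly as rare as genes that moved elsewhere. Without dwarf 1, 305 members followed, 5 stayed under and 25 exceeded the step. The number above it fell to 11 without WT 1, and the number under it was 8 without dwarf 3 and 7 without large 1.

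The members that followed the step most evenly included PRL1, a WD40 protein of a splicing-associated complex, at 62.9, 69.2 and 65.5 CPM in WT. PRL1 stood at 96.5, 97.7 and 98.8 CPM in large and at 138, 99.4 and 97.4 CPM in dwarf. All RNAi values lay above WT, and dwarf 1 was the highest, by ratios of 1.47, 1.48 and 1.5 in large and 2.09, 1.51 and 1.48 in dwarf. FBW2, an F-box protein, went from 45.4, 53.0 and 44.5 CPM in WT to 71.7, 72.1 and 72.8 CPM in large and 98.7, 76.4 and 71.8 CPM in dwarf. ADNT1, a mitochondrial carrier of adenine nucleotides, read 123, 129.9 and 123 CPM in WT, 172, 179 and 176 CPM in large and 210.4, 178 and 169.5 CPM in dwarf. For both genes the groups did not overlap with WT and the 3 large libraries agreed to within a few percent. MED21, a subunit of the Mediator complex, had ratios of 1.43, 1.45 and 1.47 in large and 1.83, 1.41 and 1.44 in dwarf. NFU1, a plastid iron-sulfur scaffold protein, lay at 1.83, 1.38 and 1.33 times WT in dwarf and at 1.35 to 1.39 times in large. Another gene overlaps 48.9% of its span from start to end, introns included, so its reads are uncertain. CUL1, the cullin of SCF ubiquitin ligases, and SDG2, a histone methyltransferase, also followed, with mean ratios of 1.56 and 1.48 over the 6 RNAi libraries.

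Of the 5 most abundant members in WT, HOG1 followed the step in all 6 libraries and UBQ10, ATPC1, ACD6 and PETC were mixed. HOG1, the S-adenosylhomocysteine hydrolase of the methylation cycle, stood at 907, 972 and 970.2 CPM in WT, 1466, 1411 and 1440.3 CPM in large and 1554, 1413 and 1427 CPM in dwarf. Its RNAi values lay close together and above WT, with dwarf 1 less raised than the step of that library. UBQ10, a polyubiquitin gene widely used as a reference for expression, stood at 1436, 1579 and 1443 CPM in WT and at 1650.0, 1776 and 1552 CPM in large. In dwarf 1, 2 and 3 UBQ10 reached 2866, 2196 and 1937 CPM, so that large overlapped with WT and dwarf did not. ACD6, an ankyrin repeat membrane protein of the defence response, stood at 1099, 1104 and 1114 CPM in WT, 1518, 1459 and 1126 CPM in large and 2220.3, 2050.2 and 1602 CPM in dwarf. ATPC1 and PETC, the gamma subunit of the chloroplast ATP synthase and the Rieske protein of the cytochrome b6f complex, had mean ratios of 1.46 and 1.31.

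Only 4 members stayed under the step in all 6 RNAi libraries. UBQ14, another polyubiquitin gene, stood at 264, 269 and 276 CPM in WT, 305, 304 and 299 CPM in large and 353, 305 and 311 CPM in dwarf. Its RNAi values all lay above WT, but by a mean ratio of only 1.16. Another gene overlaps 32.5% of its span, and 7.81% of its 50-base words occur elsewhere in the genome, so its count is uncertain. The serine carboxypeptidase-like gene scpl20 stood at 33.6, 39.9 and 32.6 CPM in WT, 39.4, 41.7 and 35.7 CPM in large and 45.6, 36.0 and 23.9 CPM in dwarf, with all groups overlapping. RAP2.9, of the AP2/ERF family of transcription factors, stood at 6.51, 6.73 and 5.69 CPM in WT, 5.57, 7.01 and 4.97 CPM in large and 8.34, 6.24 and 6.54 CPM in dwarf. UNE15, which encodes a late embryogenesis abundant protein, stood at 8.64, 9.63 and 7.03 CPM in WT, 6.83, 9.14 and 7.13 CPM in large and 4.34, 6.27 and 9.72 CPM in dwarf. The mean ratios of scpl20, RAP2.9 and UNE15 were 1.03, 1.01 and 0.839, the last being the lowest of all members.

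The 18 members above the step were mostly low in WT, with a median of 5.36 CPM there, against 30.7 CPM for the members that followed. Of the 18, 9 were under 5 CPM in WT and met the level minimum only through the RNAi libraries, as did 55 members in all. NIP5;1, a boric acid channel of the plasma membrane, stood at 2.49, 3.66 and 4.52 CPM in WT, 18.9, 16.8 and 15.4 CPM in large and 39.1, 16.0 and 13.0 CPM in dwarf. Its mean ratio was 5.28, the highest of the 770 members over the 6 RNAi libraries, and dwarf 1 was far above the other 5. Without dwarf 1 its mean ratio was 4.55 and that of GH9B13, at 5.24, was the highest. GH9B13, a glycosyl hydrolase of the endoglucanase family, stood at 4.47, 5.73 and 8.54 CPM in WT, 35.4, 31.1 and 33.0 CPM in large and 18.8, 29.5 and 30.5 CPM in dwarf. Here dwarf 1 was the lowest of the RNAi libraries, although its step was the highest, and the mean ratio was 4.80. ABCG30, a transporter of the pleiotropic drug resistance type, stood at 2.13, 1.81 and 2.42 CPM in WT, 7.96, 7.94 and 7.34 CPM in large and 18.7, 7.19 and 7.44 CPM in dwarf. It again had its highest value in dwarf 1. DI21, named for its induction by drought, stood at 7.13, 10.6 and 11.4 CPM in WT, 40.2, 43.1 and 43.0 CPM in large and 38.8, 24.7 and 38.7 CPM in dwarf. The ratios of DI21, 2.59 to 4.52, contrast with 1.47 to 2.09 in the adjacent PRL1, whose end lies less than 1 kb from its start.

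Other members above the step had mean ratios of 2.11 to 2.89. PAKRP1, a kinesin of the phragmoplast, which builds the new wall between dividing cells, stood at 3.11, 2.93 and 3.93 CPM in WT, 9.90, 8.98 and 11.0 CPM in large and 10.3, 8.31 and 9.44 CPM in dwarf. Its large and dwarf libraries overlapped and both lay above WT. AT4G02800 (a GRIP/coiled-coil protein), AT4G14050 (a pentatricopeptide repeat protein, of a family known for processing organelle RNA) and AT4G14330 (a P-loop nucleoside triphosphate hydrolase) had mean ratios of 2.69, 2.65 and 2.59. The remaining 10, named here after their values were seen, were AT4G10650, AT4G13650, AT4G14820, AT4G04190, ABCG41, AT4G02750, AT4G15730, NET1C, UNE12 and CCS52A2, the last an activator of the anaphase-promoting complex. Of the 8 members with a pentatricopeptide product, 3 were above the step and 0 followed or stayed under it, a group also picked after its values were seen. One of them, AT4G14050, had a mean of 3.41 CPM in WT and met the level minimum only through the RNAi libraries. Nothing about the family is read from this count. Only 1 pair of the 18 were next to each other among the members, the neighbours ABCG41 and ABCG30.

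**Figure D3:**
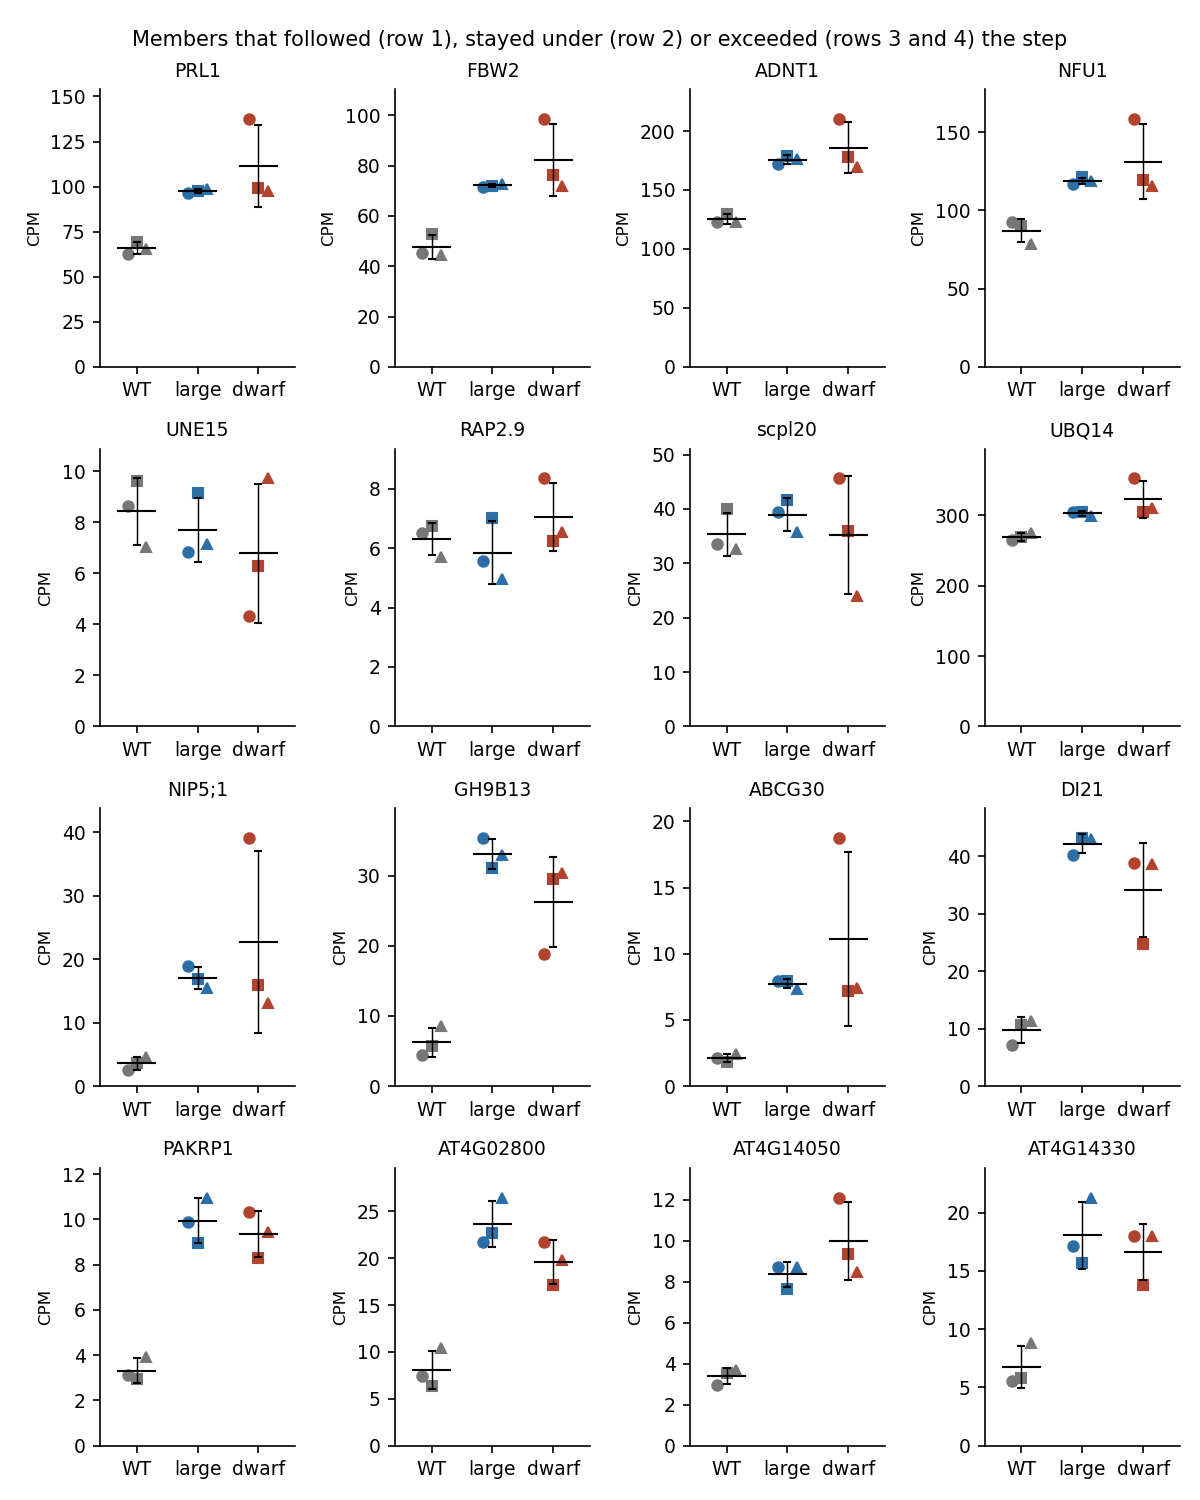
Level in CPM of 16 members in the WT (grey), large (blue) and dwarf (red) libraries, with circles, squares and triangles for replicates 1, 2 and 3 and bars for the mean and SD of 3 libraries. PRL1, FBW2, ADNT1 and NFU1 follow the step, UNE15, RAP2.9, scpl20 and UBQ14 stay under it, and the 8 lower panels, from NIP5;1 to AT4G14330, exceed it.

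Fewer of the low members followed the step in all 6 libraries than of the high ones. Across quartiles of the mean over 9 libraries, from lowest to highest, the median ratio was 1.58, 1.55, 1.54 and 1.47, the share that followed was 20.2, 36.5, 49.5 and 46.1%, and 12, 5, 1 and 0 members were above the step. The lowest quartile holds members that met the level minimum only through the RNAi libraries. Over the 715 members of at least 5 CPM in WT, a choice made after seeing the data, the median ratio across quartiles was 1.53, 1.53, 1.54 and 1.47, the share that followed was 29.1, 36.9, 52.2 and 44.1%, and 4, 4, 1 and 0 members were above the step. Across genes, the mean ratio in units of the step had a Spearman correlation of -0.19 with level (-0.10 over the 715), 0.13 with exon length and 0.07 with position (n = 770 genes, which share libraries and are not replicates). Neighbouring members did not resemble each other in this measure, with a correlation of -0.03 over 769 pairs. The median ratio was 1.44 for the 51 members with at least 25% of their span overlapped by another gene, against 1.53 for all 770. It was 1.54 for the 23 with at least 10% of their 50-base words elsewhere in the genome.

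The median ratios of the gene groups lay between 1.37 and 1.62 over the RNAi libraries, against 1.53 for all members, and differed more in single libraries. The 21 chloroplast and photosynthesis members had a median ratio of 1.37 over the RNAi libraries (range 1.16 to 2.19), and 1 of them, the carotenoid desaturase PDS3, followed the step in all 6 libraries while 20 were mixed. Their medians were 1.37, 1.32 and 1.59 in dwarf 1, 2 and 3 and 1.37, 1.21 and 1.55 in large 1, 2 and 3, so they were lower than the step in dwarf 1, dwarf 2, large 1 and large 2 and higher in dwarf 3 and large 3. Of the 21, 17, 18 and 7 lay below the step in dwarf 1, 2 and 3, and 15, 18 and 6 in large 1, 2 and 3, where by definition 385 of the 770 members do. The 3 leaf markers, which lie on other chromosomes, also varied between these libraries. RBCS1A, the small subunit of Rubisco, had ratios of 0.584, 0.836 and 0.943 in dwarf and 0.918, 0.731 and 1.05 in large. RCA, Rubisco activase, had ratios of 0.62, 0.80 and 1.32 in dwarf and 1.01, 0.750 and 1.09 in large. CAB1, a chlorophyll-binding protein, had ratios of 0.520, 0.723 and 1.31 in dwarf and 0.839, 0.657 and 0.803 in large. All 3 markers were lowest in dwarf 1 within dwarf and in large 2 within large, but CAB1 was lower in large 3 than in large 1, where the chloroplast list was higher in large 3. The part of the markers in the chloroplast values was not tested.

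The 21 defence and signalling members had a median ratio of 1.56 (range 1.11 to 2.65), 7 followed the step and 14 were mixed. Their medians were 2.51, 1.66 and 1.36 in dwarf and 1.34, 1.45 and 1.26 in large, above the step in dwarf 1 and dwarf 2 and below it in the other 4. The mitogen-activated protein kinase MPK4 followed, at a mean ratio of 1.58. Some members, named here after their values were seen, were far more variable. AZI1, a lipid transfer-like protein of systemic immunity, stood at 8.61, 6.06 and 8.96 CPM in WT, 9.47, 15.8 and 14.9 CPM in large and 50.4, 23.5 and 29.3 CPM in dwarf. SAG21, a senescence-associated gene, stood at 22.1, 30.6 and 26.6 CPM in WT, 17.3, 79.5 and 18.2 CPM in large and 162, 59.9 and 28.5 CPM in dwarf. AZI1 was higher in every dwarf library than in every large one, and SAG21 was high in dwarf 1 and large 2 with overlapping groups. Neither was called between dwarf and large by edgeR's quasi-likelihood test. A separation like that of AZI1 held for 94 members (12.2%), against 9.32% of all genes of at least 5 CPM.

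In the remaining lists, the 21 genes of transcription, chromatin and genome maintenance had a median ratio of 1.62 with 7 that followed, and the 10 hormone, light and growth genes 1.58 with 3 that followed. The blue-light receptor CRY1 had a mean ratio of 1.36 and the homeodomain protein PDF2 one of 1.22. The 18 metabolism and transport genes had a median of 1.48 (1.84, 1.39 and 1.31 in dwarf and 1.48, 1.83 and 1.46 in large, so above the step in large 2), with 3 that followed and 2 above the step (NIP5;1 and GH9B13), and the 12 genes of ubiquitin, translation and the cytoskeleton 1.49, with 5 that followed and UBQ14 under it. GSTF2, a glutathione transferase of which another gene overlaps 85.3%, ranged in ratio from 0.674 to 2.67, and the alpha-tubulin TUA6 from 1.16 to 1.44. Of 5 neighbouring glutaredoxin-type genes, 3 passed the level minimum, with a median of 1.58 and 0 that followed in all 6 libraries; AT4G15690 and AT4G15700 had mean ratios of 1.70 and 1.58, with WT 1 well above WT 2 and WT 3. For all 19870 genes tested the median was 1.01.

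**Figure D4:**
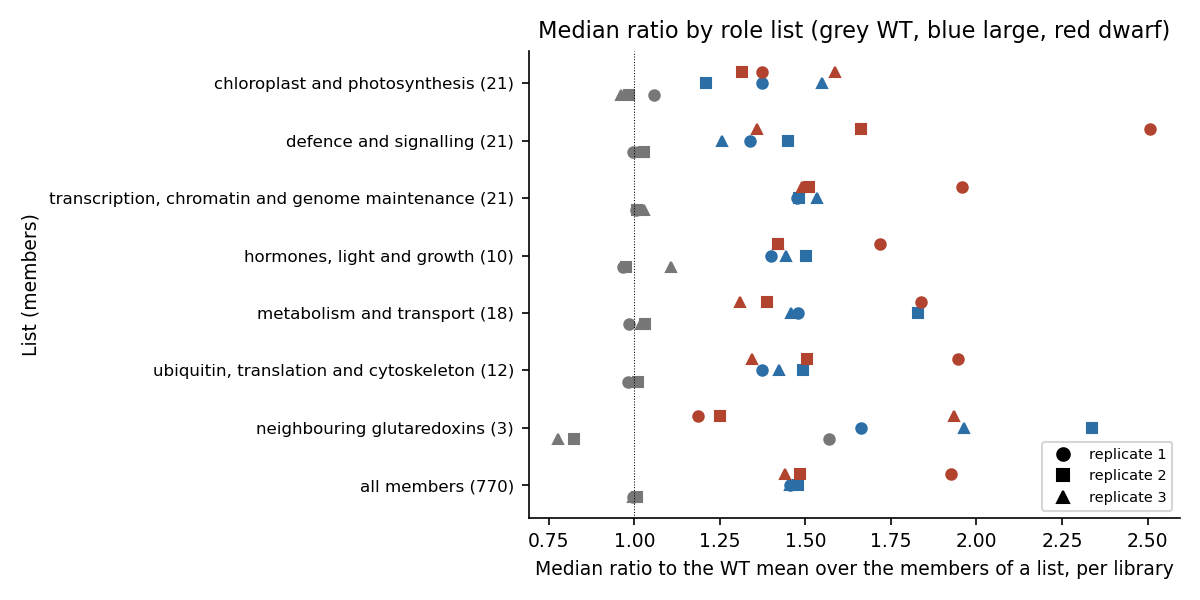
Median ratio to the WT mean over the members of each list, one symbol per library (grey WT, blue large, red dwarf), with the number of members in brackets. The chloroplast list in dwarf 1 (1.37) lies below all members (1.93) and the defence list in dwarf 1 (2.51) above.

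In a pair of complexes, genes of the region could be set beside subunit genes from elsewhere. COP9, subunit 8 of the COP9 signalosome, which removes NEDD8 from cullins, had ratios of 2.06, 1.55 and 1.47 in dwarf and 1.38, 1.57 and 1.41 in large. The other 9 subunit genes, all outside the region, had mean ratios of 0.909 to 1.05. In the chloroplast ATP synthase, the member ATPC1 had ratios of 1.29, 1.32 and 1.65 in dwarf and 1.56, 1.31 and 1.67 in large, and ATPD, the delta subunit and also a member, 0.886, 1.06 and 1.40 in dwarf and 1.25, 1.08 and 1.41 in large. PDE334, a subunit gene farther down chromosome 4, had ratios of 0.619, 0.821 and 0.923 in dwarf and 0.971, 0.747 and 1.00 in large. In each RNAi library both members were higher than PDE334. ATPC2 on chromosome 1, a second gamma subunit gene at only 3.34 to 6.11 CPM, had ratios of 1.05, 1.22 and 1.66 in dwarf and 1.08, 0.976 and 1.23 in large. It exceeded ATPD in all 3 dwarf libraries and ATPC1 in dwarf 3, and its mean ratio of 1.18 was above the 1.16 of ATPD, so members and other genes were separated in the signalosome and not in the ATP synthase.

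The contrast between the dwarf and large libraries was not used to choose the members, and could be tested. As the libraries differ in their step, it was tested on the counts and again with the step of each library taken out as an offset for the genes of the region. On the counts, 1 member was higher and 3 were lower in dwarf by edgeR's quasi-likelihood test at an adjusted p under 0.05, where 0.272% and 0.377% of all 19870 genes tested were called in those directions. With the steps taken out, 2 were higher and 7 lower, where 0.362% and 0.508% of all genes were. That is 1.17% of the members against 0.871% of all genes in either direction, and on the counts 0.519% against 0.649%. Calls were thus about as frequent among the members as among all genes tested. The latter also hold the members and genes under 5 CPM, so the sets are unlike in level. Of the lower calls, AT4G11911 and AT4G04630 met the level minimum only through large, where they are high. The counts depended on the tool: with the steps out, DESeq2's Wald test called 35 higher and 37 lower, limma voom 64 and 84, and edgeR with only the 2 groups in the fit 0 and 0 (115 at an unadjusted p under 0.05). On the counts the balance also turned, with 46 higher and 17 lower by DESeq2 and 78 and 52 by voom. At an unadjusted p under 0.05 there were 150 members on the counts and 156 with the steps out. Shares over all genes were not computed for the other tools or for unadjusted p. Those counts therefore do not show whether members differ from other genes. The 3 dwarf libraries all lay above the 3 large ones for 94 members (12.2%, against 9.32% of all genes of at least 5 CPM) and below them for 47 (6.10%, against 9.80%).

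The 5 lower members named here had their highest values in large. AT4G11911, a STAY-GREEN-like protein, of a family known for chlorophyll breakdown, stood at 3.62, 1.28 and 2.47 CPM in dwarf, 14.4, 18.3 and 11.8 CPM in large and 5.0, 4.62 and 6.37 CPM in WT. All large libraries lay above WT and all dwarf libraries below it (dwarf against large with the steps out, log2 fold change -2.76, SE 0.29, adjusted p = 0.0176). AT4G11911 met the level minimum only through large, with a mean of 3.90 CPM over dwarf and WT. BAM5, a beta-amylase, stood at 84.4, 28.7 and 123 CPM in dwarf, 546, 464 and 414 CPM in large and 175, 92.7 and 175 CPM in WT. The fall from large to dwarf was 2.71 on the log2 scale, given as log2 fold change -2.71 (SE 0.49, adjusted p = 0.0493). HPL1, annotated as a hydroperoxide lyase, stood at 42.3, 33.5 and 18.1 CPM in dwarf, 70.0, 95.4 and 70.0 CPM in large and 46.9, 38.5 and 33.1 CPM in WT (log2 fold change -1.49, SE 0.24, adjusted p = 0.0368). Dwarf and large did not overlap, while dwarf overlapped with WT.

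AT4G04630, which the annotation calls a senescence regulator of unknown function, stood at 5.46, 5.27 and 4.88 CPM in dwarf, 11.5, 11.0 and 11.6 CPM in large and 4.44, 4.94 and 4.78 CPM in WT. It did not follow the step in dwarf and exceeded it in large (log2 fold change -1.25, SE 0.12, adjusted p = 0.0146). AT4G04630 met the level minimum only through large, with a mean of 4.96 CPM over dwarf and WT. TBL26, of a family that acetylates wall polysaccharides, stood at 40.4, 27.7 and 45.0 CPM in dwarf, 79.0, 68.9 and 91.3 CPM in large and 43.0, 29.1 and 35.1 CPM in WT (log2 fold change -1.21, SE 0.22, adjusted p = 0.0493). The other lower calls were AT4G15450, with a log2 fold change of -0.71, and AT4G01593, with one of -0.44. Another gene overlaps 82.7% of the span of AT4G01593. The higher calls were PARP2 and AT4G01920. PARP2, a poly(ADP-ribose) polymerase of the DNA damage response, stood at 22.3, 19 and 16.2 CPM in dwarf, 9.47, 10.2 and 9.56 CPM in large and 8.25, 6.14 and 7.43 CPM in WT. It was near the step in large and above it in dwarf (log2 fold change 0.83, SE 0.12, adjusted p = 0.0328). AT4G01920, a cysteine/histidine-rich C1 domain protein, stood at 14.3, 10.8 and 8.05 CPM in dwarf, 5.26, 6.27 and 5.70 CPM in large and 5.53, 6.26 and 6.57 CPM in WT (log2 fold change 0.79, SE 0.14, adjusted p = 0.0489). Its large libraries lay at the WT level, without the step.

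These calls rest on few libraries. With only the dwarf and large libraries in the fit, none of the 7 named members was called (adjusted p 0.131 to 0.179). When each of the 9 libraries was left out in turn, AT4G11911 and AT4G04630 stayed called in 7 of the 9 fits, losing the call without large 1 and without WT 1 (adjusted p up to 0.131 over all alternatives). Both met the level minimum only through large, where they are high: over the dwarf and WT libraries their means were 3.90 and 4.96 CPM. PARP2 stayed called in 3 fits, HPL1 in 2 and AT4G01920, BAM5 and TBL26 in 1, with the same direction throughout. With the steps out, 0 members were called without large 1 or without WT 1 (102 and 139 at an unadjusted p under 0.05), and 60 higher and 69 lower without dwarf 3. Without dwarf 2, large 2, large 3, WT 2 or WT 3, 2 or 3 members were called, and without dwarf 1, 1 higher and 6 lower. Shares over all genes were not computed for the fits without a library.

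**Figure D5:**
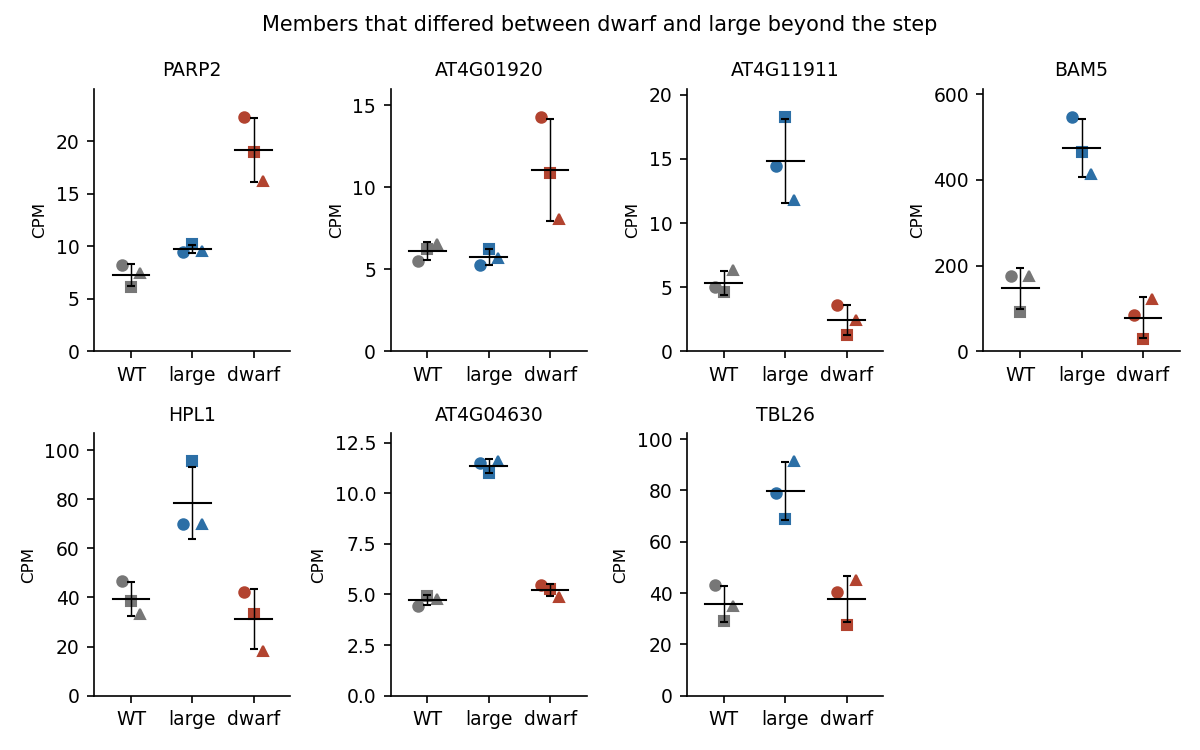
Level in CPM of the 7 named members called between dwarf and large with the steps taken out, in the WT (grey), large (blue) and dwarf (red) libraries, with circles, squares and triangles for replicates 1, 2 and 3 and bars for the mean and SD of 3 libraries. PARP2 and AT4G01920 are highest in dwarf and the other 5 are highest in large.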

How the data were processed

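RNA-seq of 9 libraries was analysed from the whole-number counts per gene that the authors deposited, 1 file per library, with no normalization. The reads were handled with STAR 2.7.0a and Trim Galore 0.4.1 on the TAIR10 build, as the submitters' processing notes list; libraries were paired 100-bp reads from a kit that does not mark strand, per the labels' protocols. Which program counted the reads, with which annotation and strand setting, was not stated in the sources used here. Positions, symbols and sequences came from TAIR10.1 (RefSeq), to which 32548 of 33977 IDs matched; ambiguous reads were 0.228 to 0.309% of each library. CPM used TMM factors (0.935 to 1.05), and log2 CPM a prior count of 2. Ratios are against the mean log2 CPM of WT. Tests used edgeR 4.0.16 in R 4.3.3 (filterByExpr, quasi-likelihood, all 9 libraries, 3 groups, no block), with Benjamini-Hochberg adjustment over all genes tested. The fit with the steps out was also run on simulated counts with known 2-fold changes. These counts were drawn independently for each gene. They lack differences between replicates that many genes outside the region share, so they do not vouch for the calls here.

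The members and gene lists were chosen with earlier results of these data known. Named members were up to 8 with the highest and 8 with the lowest ratio in all-library classes (only 4 were under the step). Up to 5 of the largest called changes each way between dwarf and large without overlap were also named (2 higher and 5 lower). So were the 5 steadiest followers among those with a symbol, and the 5 most abundant members in WT. Members of the lists (2 per list plus its over or under members) and of the complexes were added. Others are marked as chosen after their values were seen. No pair of replicate libraries of a group agreed within counting error (chi-square per degree of freedom 12.4 to 184). Replicate numbers were not taken to pair the libraries, although deviations from the group mean had a correlation of 0.43 between dwarf 3 and large 3. Alternatives were other normalizations, filters, level minimums, class limits, prior count, WT median, tools, only 2 groups, the replicate block and each library left out; the 13 listed IDs were not used as members.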

Additional observations from a re-analysis of the deposited data

Results flagged for a closer look

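Of 41 values tested over the 6 RNAi libraries, 4 had one library far from the others; about 1 in 20 is flagged by chance. The step of dwarf 1, 0.95 on the log2 scale, lay far above the other 5 RNAi libraries (0.53 to 0.57). In units of the step of each library, GH9B13 lay at 1.73 in dwarf 1 against 4.00 to 4.70 in the others, HOG1 at 0.752 in dwarf 1 against 1.01 to 1.16, and scpl20 at -1.05 in dwarf 3 against 0.0367 to 0.431.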

How the results depend on the processing

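The mean step of large was 0.53 with DESeq2 size factors, 0.54 with upper-quartile factors, 0.56 with TMM from genes outside the region, 0.51 for members of at least 20 CPM and 0.53 for members of at least 5 CPM in WT, an alternative chosen after seeing the data. Without one library the step ranged from 0.55 to 0.76 in dwarf and from 0.53 to 0.55 in large. Members above the step numbered 29 at 2 CPM, 5 at 20 CPM, 9 at 5 CPM in WT and 28 with class limits of 0.7 and 1.3 of the step, and 11 to 25 without one library. Members under it numbered 2 at 20 CPM and 11 with the narrower limits, and 4 to 8 without one library. Those that followed numbered 94 with the narrower limits and 274 to 342 without one library.

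Between dwarf and large, counts of called members depended on the tool. Shares over all genes were not computed for the alternatives below, so their counts describe the members alone. On the counts, DESeq2's Wald test called 46 higher and 17 lower and limma voom 78 and 52; with the steps out they called 35 and 37, and 64 and 84. With only the 2 groups in the edgeR fit, 0 and 0 were called on the counts and 0 and 0 with the steps out, where 104 and 115 had an unadjusted p under 0.05. On the counts, upper-quartile factors and no filter gave 5 lower, and a filter of 1 CPM in 3 libraries 2 higher. Without one library, the count of higher members ranged from 0 to 103 and of lower from 0 to 24 on the counts, and from 0 to 60 and 0 to 69 with the steps out. With the replicate number as a block, 0 were higher and 0 lower on the counts (147 at an unadjusted p under 0.05), and 0 higher and 6 lower with the steps out (164); the correlations of same-numbered libraries, -0.24 to 0.43, were not all over 0.1, so the numbers were not taken to pair them. Against WT, DESeq2 and voom called 493 and 661 members higher in large, and without one library 1 to 529 were called in large and 115 to 623 in dwarf. No tested change of a named member turned its direction. Each such member had 19 alternatives and kept its call in 9 (AT4G01920) to 16 (AT4G11911 and AT4G04630) of them. Summed over the named members, a call was lost in 50 pairs of member and refit, and 41 of these pairs were refits without a library. Of the fits that left out a library, each member kept its call in 1 to 7. Among untested mean log2 ratios close to 0, that of RAP2.9 (0.02) took the other sign under 6 of 17 alternatives (-0.06 to 0.08) and that of scpl20 (0.04) under 3 of 17 (-0.02 to 0.16).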
